A study of Mus musculus with 8 samples.

Results

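The genes described here are 41 genes of glucose breakdown and of the transcriptional response to low oxygen. They comprise 2 glucose transporters, 16 glycolytic enzymes, 4 genes that control glycolysis or the exit of its products, and 19 hypoxia markers that are not glycolytic. Each was read from the probe with exactly 1 gene symbol in the platform annotation and the highest mean over all tumours. Of the 41 genes, 36 had such a probe, all 36 passed the filter on dim genes, and they entered the tests among 22180 genes with a probe of their own in the series and 16635 tested. Aldoa, an aldolase, Ankrd37, an ankyrin repeat protein, and Loxl2, a lysyl oxidase of the matrix, had only probes with several symbols and were not analysed here. No listed probe was found for the other 2, Gpi1 (glucose-6-phosphate isomerase) and Eno1 (the common enolase). The endoplasmic reticulum oxidase listed as Ero1l is named Ero1a in the annotation and below.

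The tumours arose in the mammary glands of transgenic mice of the inbred strain FVB, and RNA of 8 such tumours was hybridised to Affymetrix whole-transcript arrays, with 1 array per tumour. The genotype was NeuNT/H1074R in 4 tumours and NeuNT in 4. All tumours carried NeuNT, where Neu stands for ErbB2, a receptor tyrosine kinase, in rodents. The NeuNT/H1074R tumours also had mutant p110α, the product of Pik3ca that makes up the catalytic part of phosphoinositide 3-kinase, and the series title writes this change as H1047R. No treatment was given, and the labels give neither the promoter of the transgenes nor the age of the mice. The labels do not say that the tumours came from separate mice, so p-values measure only the spread between these tumours, which may in part be technical. Tumours are numbered 1 to 4 within each genotype, the numbers pair nothing across genotypes, and values are given in that order.

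Glycolysis turns glucose into pyruvate in the cytosol, and lactate dehydrogenase and the monocarboxylate transporters dispose of the product as lactate. When oxygen is short, the prolyl hydroxylases that mark hypoxia-inducible factor (HIF) alpha subunits for destruction slow down, and HIF raises transcription of most glycolytic enzymes together with genes of pH control, mitophagy and collagen modification. In tumours the same enzymes are also driven by growth factor signalling through phosphoinositide 3-kinase. Glycolytic enzymes and hypoxia markers without a glycolytic role can therefore be read side by side.

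Values are the deposited log2 array signals, and a difference is the mean of NeuNT/H1074R tumours minus the mean of NeuNT tumours on that scale. Array medians lay between 4.81 and 4.87. Over the tested genes, arrays correlated at r of 0.893 to 0.980 within a genotype and 0.890 to 0.971 between genotypes. The 10 epithelial markers, which define the labelled mammary tumour tissue, were all measured. Their mean log2 level per tumour was 9.17 to 9.96 in NeuNT/H1074R tumours and 9.47 to 9.58 in NeuNT tumours. Of these markers Krt19 varied most, from 5.37 in NeuNT tumour 3 to 11.52 in NeuNT/H1074R tumour 3. On average, skeletal muscle markers stood apart in NeuNT/H1074R tumours 1 and 3, called muscle-rich below. Not every marker did so. Tnni2 was highest in NeuNT tumour 2 and Ryr1 in NeuNT tumour 3, and Mb was higher in NeuNT tumour 3 than in NeuNT/H1074R tumour 1. The mean log2 level of the 17 of 20 muscle markers that passed the filter was 6.65, 5.06, 6.47 and 4.99 in NeuNT/H1074R tumours, against 4.83, 5.20, 5.03 and 4.93 in NeuNT tumours. The muscle-rich tumours 1 and 3 also had the highest mean log2 levels of epithelial markers, 9.79 and 9.96. The part of muscle tissue in the results below was not tested. Values without both muscle-rich tumours are given chiefly for members whose direction turned, and they set only NeuNT/H1074R tumours 2 and 4 against the NeuNT tumours. In bulk tumour RNA, fewer cells of a type and less RNA per cell cannot be told apart.

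No gene of either group differed between genotypes past the threshold. With limma, 0 of the 36 measured genes passed an adjusted p of 0.05, as did 0 of all 16635 genes (0%), and an ordinary two-sample test also called 0. At an unadjusted p under 0.05, limma gave 2 of the 36, against 3.82% of all tested genes, a background at which 1.37 of 36 would lie past it. Both were higher in NeuNT/H1074R tumours, as were 2.11% of all genes at that p, and 0 members were lower, beside 1.71%. These 2, carbonic anhydrase Car12 and pyruvate kinase Pkm, were also the only members whose tumours did not overlap between genotypes. Groups did not overlap for 2.69% of all genes tested, with NeuNT/H1074R tumours above for 1.59%. The difference was positive for 26 of the 36 genes, beside 49.5% of all genes, with a median difference of 0.14 for the members and -0.00 for all genes. Without NeuNT tumour 2 the count was 14 of 36 and the median -0.057, and without both muscle-rich tumours they were 17 of 36 and -0.0048, so the larger share of positive differences rested on these tumours.

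**Figure D1:**
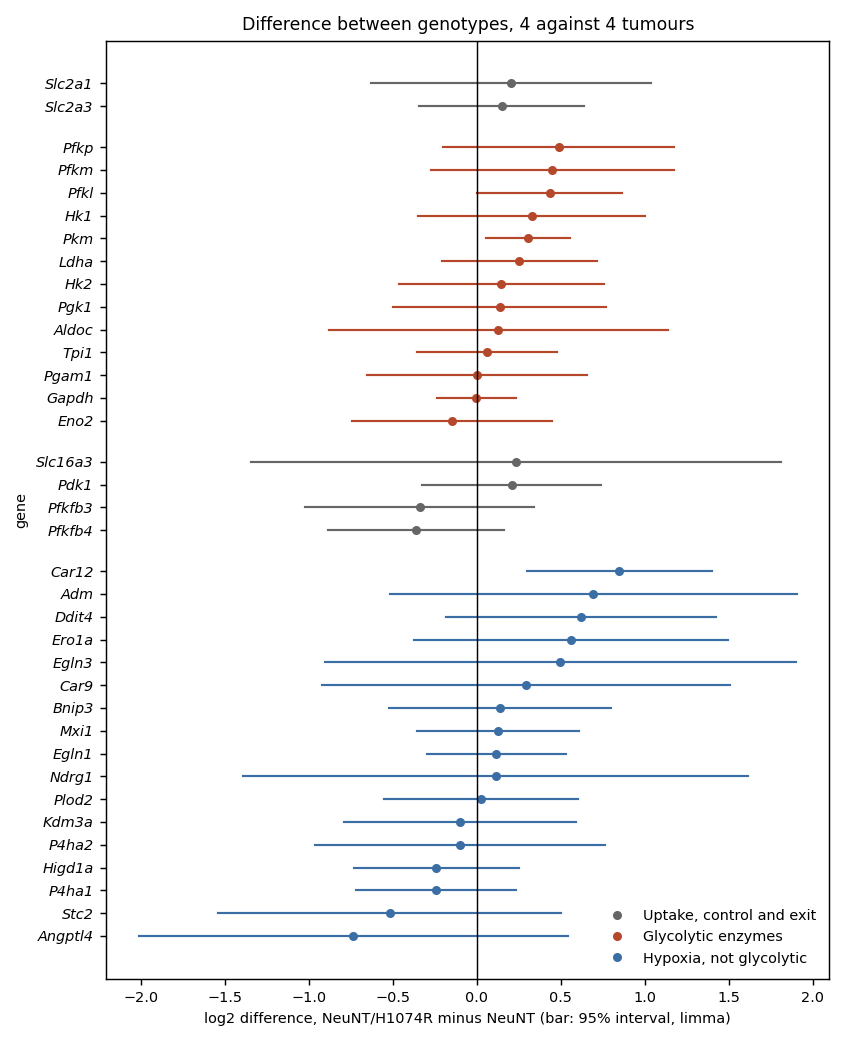
Log2 difference of each measured gene, NeuNT/H1074R minus NeuNT tumours (x axis), with limma's 95% interval as a bar; genes run down the y axis by group and by size of the difference. Only the intervals of Car12 (0.30 to 1.40) and Pkm (0.06 to 0.56) leave out 0, and neither gene passed after adjustment.

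The precision set a limit on what could be seen. The half-width of the 95% interval of a member's difference had a median of 0.66 and ran from 0.24 for Gapdh to 1.58 for Slc16a3. The median residual standard deviation between tumours of a genotype was 0.459 for members and 0.248 for all genes, and 34 of the 36 members lay above the median of all genes.

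Car12 is a membrane carbonic anhydrase that helps to control the pH outside the cell. It had log2 values of 9.66, 10.17, 10.19 and 10.76 in NeuNT/H1074R tumours, against 9.61, 9.59, 9.06 and 9.13 in NeuNT tumours. All NeuNT/H1074R tumours lay above all NeuNT tumours, although the nearest values, 9.66 and 9.61, were almost the same. The means were 10.20 ± 0.45 in NeuNT/H1074R tumours and 9.35 ± 0.29 in NeuNT tumours (SD, n = 4 each), a difference of 0.85 ± 0.24 (SE) with an unadjusted p of 0.00725 and a limma adjusted p of 0.978. Its relative Car9, a HIF target often used as a marker of hypoxia in tumours, overlapped between genotypes. Car9 had log2 values of 6.76, 6.17, 7.79 and 6.54 in NeuNT/H1074R tumours, against 7.86, 5.45, 6.05 and 6.73 in NeuNT tumours. The highest and the lowest value were both in NeuNT tumours, and the difference of 0.29 ± 0.53 (SE) had a limma adjusted p of 0.980. That difference was -0.17 without both muscle-rich tumours, and a second Car9 probe gave 0.04.

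Pkm encodes pyruvate kinase of muscle and tumour type, which makes pyruvate and ATP in the last step of glycolysis. Its log2 values were 12.03, 12.02, 11.98 and 12.17 in NeuNT/H1074R tumours, against 11.68, 11.56, 11.77 and 11.97 in NeuNT tumours. The groups did not overlap, with 11.98 and 11.97 next to each other at the boundary. Means were 12.05 ± 0.08 in NeuNT/H1074R tumours and 11.74 ± 0.17 in NeuNT tumours (SD, n = 4 each), and the difference of 0.31 ± 0.11 (SE) had an unadjusted p of 0.0216 and a limma adjusted p of 0.978. The M1 and M2 splice forms of Pkm were not told apart here.

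Among the 13 measured glycolytic enzymes, 11 had a positive difference and 2 a negative one, with a median of 0.15. Of the 13, 1 (Pkm) passed an unadjusted limma p of 0.05, beside 3.82% of all tested genes. Among the positive ones, Pgam1 lay at 0.00 and became -0.019 when the arrays were centred on their medians. Without NeuNT tumour 2, 7 of the 13 were positive. The 3 phosphofructokinases, which commit glucose to glycolysis, had differences between 0.43 and 0.49, although that of Pfkm was 0.12 without NeuNT tumour 4. Pfkl, the liver-type subunit, had log2 values of 10.07, 10.50, 10.43 and 10.61 in NeuNT/H1074R tumours, against 10.33, 9.57, 10.13 and 9.85 in NeuNT tumours. Pfkp, the platelet-type subunit, had 9.60, 9.66, 9.62 and 10.10 in NeuNT/H1074R tumours and 10.21, 8.86, 8.87 and 9.10 in NeuNT tumours. For both genes NeuNT tumour 1 lay among or above the NeuNT/H1074R tumours, so that the groups overlapped. The difference was 0.43 ± 0.19 (SE, unadjusted p = 0.0501) for Pfkl and 0.49 ± 0.30 (SE) for Pfkp, each with a limma adjusted p of 0.978.

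Hk2, the hexokinase that binds mitochondria and is induced in many tumours, had log2 values of 7.50, 6.90, 7.63 and 7.34 in NeuNT/H1074R tumours, against 7.27, 6.66, 7.02 and 7.85 in NeuNT tumours. Its groups overlapped, with a difference of 0.15 ± 0.27 (SE), or -0.075 without both muscle-rich tumours. Hk1, the hexokinase of most tissues, had a difference of 0.33 ± 0.30 (SE). Ldha, the lactate dehydrogenase subunit that favours lactate formation, had 7.40, 7.40, 7.85 and 7.60 in NeuNT/H1074R tumours and 7.58, 6.78, 7.41 and 7.47 in NeuNT tumours. Its lowest value was NeuNT tumour 2 and the other tumours overlapped, with a difference of 0.25 ± 0.20 (SE) and a limma adjusted p of 0.978. Without that tumour it was 0.076.

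Pgk1, phosphoglycerate kinase, makes the first ATP of the pathway and is an established HIF target. It had log2 values of 11.06, 10.93, 11.22 and 11.24 in NeuNT/H1074R tumours, against 10.96, 10.11, 11.48 and 11.35 in NeuNT tumours. NeuNT tumours held both the lowest and the 2 highest values, and the difference was 0.14 ± 0.28 (SE), or -0.15 without NeuNT tumour 2. The remaining enzymes were the aldolase Aldoc (0.13), triosephosphate isomerase Tpi1 (0.06), glyceraldehyde-3-phosphate dehydrogenase Gapdh (-0.00), phosphoglycerate mutase Pgam1 (0.00) and the neuronal enolase Eno2 (-0.15). Gapdh was the steadiest member, with log2 values between 12.69 and 13.07 and an interval of -0.24 to 0.23. The annotation pairs 8 further Gapdh probes with other symbols as well, which were left out.

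Among the uptake and exit genes, the residual standard deviation inside a genotype was 1.15 for Slc16a3, 0.60 for Slc2a1 and 0.34 for Slc2a3. Slc2a1, the glucose transporter GLUT1, had log2 values of 11.20, 9.83, 11.06 and 10.48 in NeuNT/H1074R tumours, against 9.93, 9.96, 10.82 and 11.04 in NeuNT tumours. Slc16a3, the lactate exporter MCT4, had 8.83, 6.26, 7.88 and 6.80 in NeuNT/H1074R tumours and 6.86, 6.09, 7.06 and 8.84 in NeuNT tumours. NeuNT/H1074R tumours 1 and 3 and NeuNT tumours 3 and 4 held the 4 highest values of both genes. The difference was 0.20 ± 0.37 (SE) for Slc2a1 and 0.23 ± 0.69 (SE) for Slc16a3, with limma adjusted p of 0.980 and 0.988. Without both muscle-rich tumours these were -0.29 and -0.68. Slc2a3, the high-affinity transporter GLUT3, had a difference of 0.15 ± 0.21 (SE), or -0.17 without those tumours.

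The control and exit genes Pfkfb3, Pfkfb4, Slc16a3 and Pdk1 had 2 positive and 2 negative differences. Pfkfb4 makes and breaks down fructose 2,6-bisphosphate, the activator of phosphofructokinase. Its log2 values were 5.98, 5.29, 5.71 and 5.65 in NeuNT/H1074R tumours, against 5.64, 5.89, 5.94 and 6.60 in NeuNT tumours. The groups overlapped, with a difference of -0.36 ± 0.23 (SE) and a limma adjusted p of 0.978. Pfkfb3, an enzyme of the same kind, had a difference of -0.34 ± 0.30 (SE), or -0.072 without NeuNT tumour 3. Pdk1, the kinase that keeps pyruvate out of mitochondria by switching off pyruvate dehydrogenase, had a difference of 0.21 ± 0.23 (SE), which was 0.0099 without NeuNT tumour 2 and 0.39 without NeuNT tumour 3.

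Of the 17 measured hypoxia genes without a glycolytic role, 11 had a positive and 6 a negative difference, with a median of 0.12. Their median lay 0.03 below that of the glycolytic enzymes. Taken as glycolytic minus hypoxia, this contrast was -0.019 without NeuNT/H1074R tumour 2 and 0.22 without NeuNT/H1074R tumour 1, so its direction was not stable. Without NeuNT tumour 2, the median was 0.04 for glycolytic enzymes and -0.13 for hypoxia genes, and 4 of the 17 hypoxia genes were positive, so the direction of the hypoxia group rested on that tumour. Without both muscle-rich NeuNT/H1074R tumours it was 0.19 for the enzymes and -0.03 for the hypoxia genes.

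Ddit4 (REDD1), an inhibitor of mTOR complex 1 that is induced by hypoxia, had log2 values of 9.52, 8.22, 9.84 and 8.80 in NeuNT/H1074R tumours, against 8.13, 8.22, 8.87 and 8.68 in NeuNT tumours. NeuNT/H1074R tumours 1 and 3 were the highest and the remaining tumours overlapped, with a difference of 0.62 ± 0.35 (SE). That difference was 0.04 without both muscle-rich tumours. Adm, the vasodilator peptide adrenomedullin, had 8.56, 7.56, 9.002 and 8.71 in NeuNT/H1074R tumours and 7.94, 6.26, 8.80 and 8.07 in NeuNT tumours. The lowest Adm value again came from NeuNT tumour 2, and the difference of 0.69 ± 0.53 (SE) was 0.19 without it. Ero1a, the oxidase that forms disulfide bonds in the endoplasmic reticulum, had 10.74, 9.93, 11.06 and 10.74 in NeuNT/H1074R tumours and 10.35, 8.84, 10.36 and 10.68 in NeuNT tumours. Its groups overlapped, with a difference of 0.56 ± 0.41 (SE), or 0.15 without NeuNT tumour 2. All 3 genes had a limma adjusted p of 0.978.

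The oxygen sensors are the prolyl hydroxylases, of which Egln3 (PHD3) is itself a strong HIF target. Egln3 had log2 values of 10.17, 11.18, 11.42 and 11.70 in NeuNT/H1074R tumours, against 11.39, 8.74, 11.53 and 10.81 in NeuNT tumours. NeuNT tumour 2 was far below the other 7 and the genotypes overlapped, with a difference of 0.50 ± 0.61 (SE), or -0.13 without that tumour. Egln1 (PHD2), the main sensor in most cells, had a difference of 0.12 ± 0.18 (SE), or -0.034 without both muscle-rich tumours.

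Some hypoxia genes stood out by their range over the 8 tumours. Ndrg1, a stress-induced gene that restrains metastasis in several models, had log2 values of 11.34, 8.99, 11.81 and 9.61 in NeuNT/H1074R tumours, against 9.93, 9.43, 10.99 and 10.94 in NeuNT tumours. Its high tumours were the same 4 as for Slc2a1 and Slc16a3, and the difference of 0.11 ± 0.66 (SE) had a limma adjusted p of 0.993. It was -1.03 without both muscle-rich tumours. Angptl4, a secreted inhibitor of lipoprotein lipase, had 8.57, 7.54, 8.38 and 6.66 in NeuNT/H1074R tumours and 8.48, 9.81, 7.44 and 8.36 in NeuNT tumours. Here NeuNT tumour 2 was the highest of all, opposite to most members, with a difference of -0.74 ± 0.56 (SE), or -0.31 without it. Stc2, the secreted glycoprotein stanniocalcin, was also highest in NeuNT tumour 2, at 8.58 against 6.30 to 7.11 elsewhere.

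Collagen hydroxylases and the remaining markers had differences of both signs. P4ha1, a collagen prolyl hydroxylase, had log2 values of 8.59, 7.57, 8.04 and 8.06 in NeuNT/H1074R tumours, against 8.21, 8.36, 8.51 and 8.16 in NeuNT tumours. Its highest and lowest values were both in NeuNT/H1074R tumours, and the difference was -0.24 ± 0.21 (SE) with a limma adjusted p of 0.978. The sister hydroxylase P4ha2 differed by -0.10, the lysyl hydroxylase Plod2 by 0.02, the histone demethylase Kdm3a by -0.10, the mitochondrial protein Higd1a by -0.24, the mitophagy receptor Bnip3 by 0.14 and the MYC antagonist Mxi1 by 0.13 (-0.071 without both muscle-rich tumours). Stc2 differed by -0.52, and by -0.044 without NeuNT tumour 2.

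**Figure D2:**
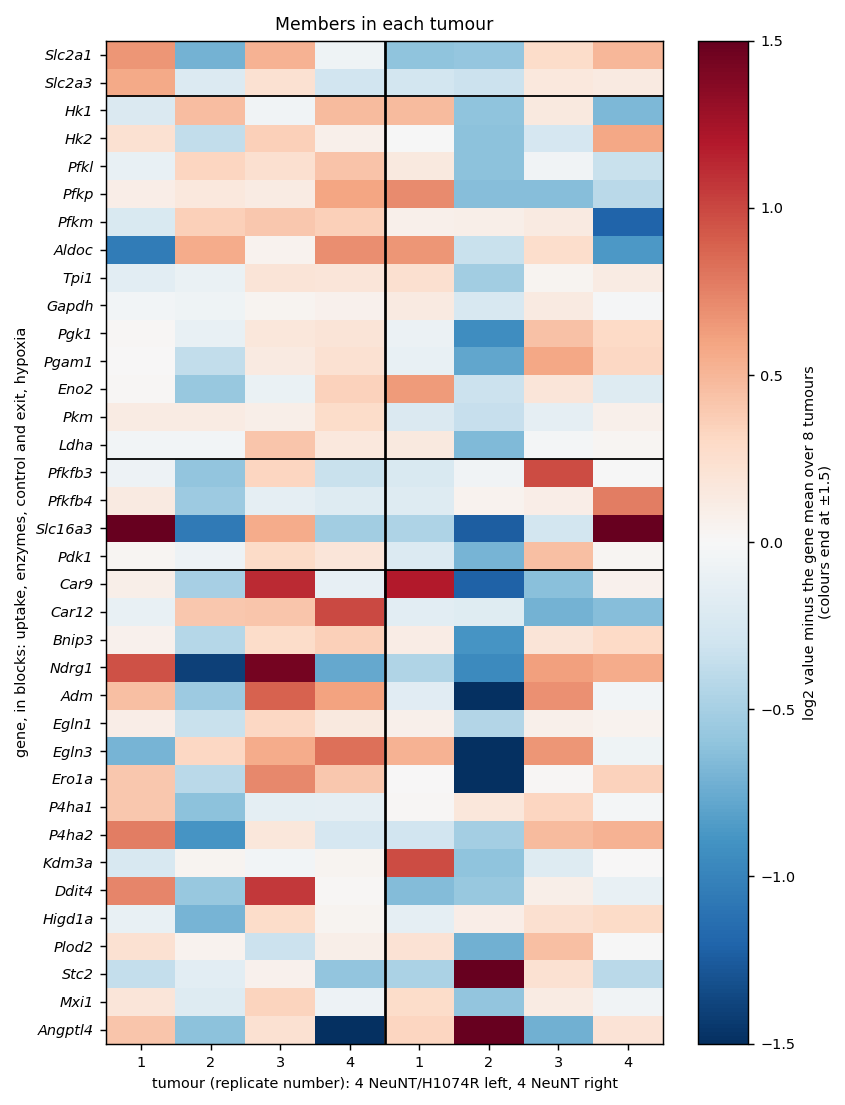
Log2 values of the 36 measured genes (rows, by group) in the 8 tumours (columns, NeuNT/H1074R left of NeuNT), each gene centred on its mean over the tumours; red is above and blue below that mean, and the colours stop at 1.5 to either side. NeuNT tumour 2 is blue for most genes, being the lowest of 8 for 21 of the 36, while Stc2 and Angptl4 are red there.

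The wider variation lay between tumours of a genotype. NeuNT tumour 2 had the lowest value of all 8 tumours for 21 of the 36 members, comprising 9 of 13 glycolytic enzymes, 9 of 17 hypoxia genes and 3 others, while it was lowest for 15.7% of all genes tested. It lay above the gene's median in 0 of the 13 enzymes. NeuNT/H1074R tumour 4 lay above it in 13 of 13 enzymes and in 9 of 17 hypoxia genes. NeuNT/H1074R tumour 3 did so in 10 of 13 enzymes and 14 of 17 hypoxia genes. How often each tumour lay above the median over all tested genes was not computed. A member's value was next centred on its mean over the 8 tumours and averaged over its group. Glycolytic enzymes averaged -0.10, 0.03, 0.16 and 0.31 in NeuNT/H1074R tumours, against 0.22, -0.50, 0.06 and -0.17 in NeuNT tumours. For hypoxia genes, the averages were 0.19, -0.38, 0.43 and 0.01 in NeuNT/H1074R tumours, against 0.08, -0.50, 0.11 and 0.06 in NeuNT tumours. Both groups were lowest in NeuNT tumour 2 and differed most in NeuNT/H1074R tumours 2, 4 and 1.

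NeuNT tumour 2 also had the highest mean of fibroblast markers (0.70 above their average over tumours, 10 of 10 measured) and of endothelial markers (0.55, 10 of 10). Adipocyte markers (9 of 10 measured) were 0.99 above their average there and 1.01 above it in NeuNT tumour 1, where glycolytic enzymes averaged 0.22 above theirs. The mean log2 level of endothelial markers ranged from 6.74 to 6.93 in NeuNT/H1074R tumours and from 6.54 to 7.49 in NeuNT tumours. For fibroblast markers it ranged from 7.44 to 8.26 in NeuNT/H1074R tumours and from 7.54 to 8.75 in NeuNT tumours. The part of these cell types in the low values of NeuNT tumour 2 was not tested.

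**Figure D3:**
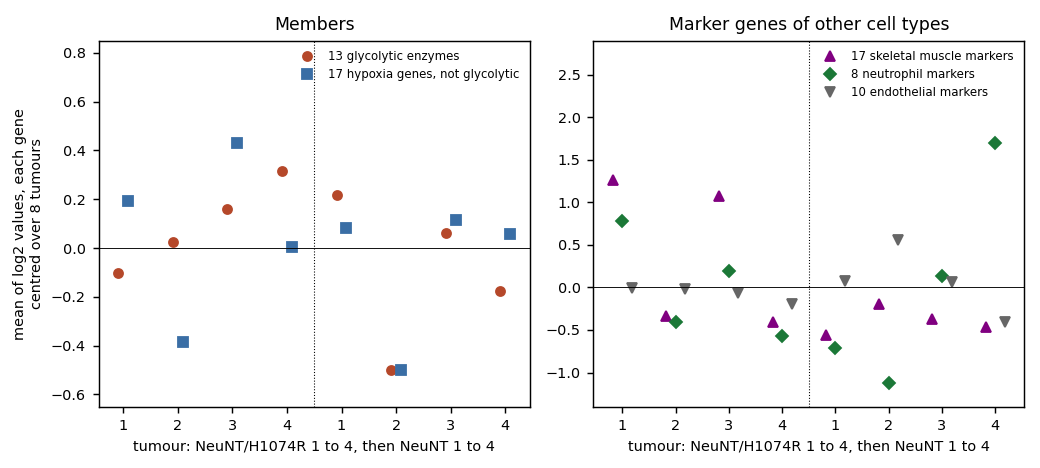
Mean log2 value per tumour, each gene centred over the 8 tumours, for glycolytic enzymes and hypoxia genes (left) and for markers of skeletal muscle, neutrophils and endothelium (right); the x axis gives NeuNT/H1074R tumours 1 to 4 and then NeuNT tumours 1 to 4. Both member groups are lowest at -0.50 in NeuNT tumour 2, and the muscle markers are high (1.26 and 1.07) in NeuNT/H1074R tumours 1 and 3.

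Correlations between members were higher than those between genes at large. The median Pearson r over the 8 tumours was 0.463 for the 78 pairs of glycolytic enzymes, 0.273 for the 136 pairs of hypoxia genes and 0.329 for the 221 pairs between the groups. It was 0.00 over all pairs of tested genes. A correlation above 0.5 was seen for 46.2% of enzyme pairs, 39.7% of hypoxia pairs and 37.1% of pairs between groups, beside 12.9% of all pairs. With the genotype means taken out, the medians were 0.505, 0.335 and 0.323. These correlations share the 8 arrays and the low NeuNT tumour 2, and no test was made of them.

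Pgk1 was used as an anchor because it is both a glycolytic enzyme and a HIF target. Of the other 35 members, 30 correlated positively with it over the 8 tumours, and 3 passed an adjusted p of 0.05 by an exact two-sided permutation test of Pearson's r over the 40320 pairings, adjusted over the 35. They were the enzyme Pgam1, the kinase Pdk1 and the mitophagy receptor Bnip3. The same counts over all tested genes were not computed, so they cannot show whether correlation with Pgk1 is particular to members. Pgam1 had r of 0.956 (exact permutation p = 2.48e-05, the smallest these pairings allow) and Spearman's rho of 1. Its adjusted exact permutation p was 0.000868 for r and 0.00174 for rho. Its r was 0.947 without the 2 tumours farthest from the median of Pgk1, NeuNT tumours 2 and 3. Pdk1 had r of 0.941 (exact permutation p = 0.0017, adjusted 0.0291) and rho of 0.881 (adjusted exact permutation p = 0.127), with r of 0.684 without those tumours. Bnip3 had r of 0.907 (exact permutation p = 0.0037, adjusted 0.0431) and rho of 0.810 (adjusted exact permutation p = 0.254), with r of 0.797 without those tumours. Over all 35 members, the median r with Pgk1 was 0.53, and 0.35 without NeuNT tumours 2 and 3. Leaving out those tumours took it from 0.54 to 0.0013 for the other 12 glycolytic enzymes and from 0.55 to 0.21 for the 17 hypoxia genes. For the 4 control and exit genes it went from 0.46 to 0.63. The typical correlation of an enzyme with Pgk1 therefore rested on those tumours. By rho, only Pgam1 passed. By r, 1 member passed when any single tumour among NeuNT/H1074R tumours 1, 2 and 4 and NeuNT tumours 1 and 2 was left out. With all probes of a gene averaged, none of the 35 passed, and the second Pgam1 probe had r of 0.709 with Pgk1 (exact permutation p = 0.0501).

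**Figure D4:**
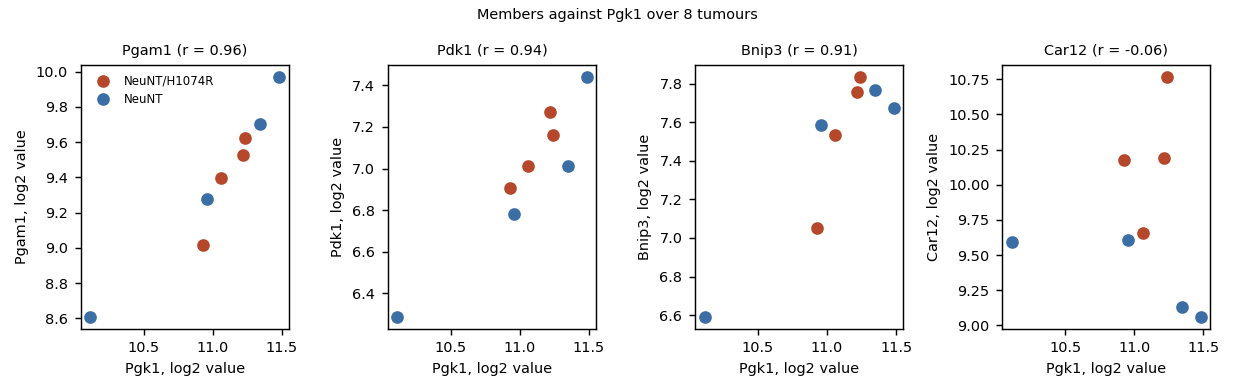
Log2 values of Pgam1, Pdk1, Bnip3 and Car12 (y axes) against Pgk1 (x axis), 1 point per tumour, coloured by genotype with NeuNT/H1074R and NeuNT in the legend. NeuNT tumour 2 is the leftmost point, with Pgk1 at 10.11, and Car12 has r of -0.06 with Pgk1 where Pgam1 has 0.96.

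The core motif of HIF binding is ACGTG or GCGTG, and it was searched on both strands (also as CACGT or CACGC, with overlaps counted) in promoter windows of 300 bases. The windows ran from 250 bases before to 50 bases after each start in RefSeq, build GRCm38.p6. Windows of Pgk1 and of Pgam1, Pdk1 and Bnip3 are shown because these 3 passed with Pgk1 by r, although only Pgam1 did by rho. Slc16a3 is shown as a member with another order of tumours, and Car12 as the member of smallest limma p between genotypes. Capitals mark the motif.
Pgk1: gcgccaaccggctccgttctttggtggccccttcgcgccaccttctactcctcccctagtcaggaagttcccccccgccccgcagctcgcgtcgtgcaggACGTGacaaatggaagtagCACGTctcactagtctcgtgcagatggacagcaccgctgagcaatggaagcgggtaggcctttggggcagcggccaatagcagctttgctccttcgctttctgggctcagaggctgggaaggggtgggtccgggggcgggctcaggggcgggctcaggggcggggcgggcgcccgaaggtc
Pgam1: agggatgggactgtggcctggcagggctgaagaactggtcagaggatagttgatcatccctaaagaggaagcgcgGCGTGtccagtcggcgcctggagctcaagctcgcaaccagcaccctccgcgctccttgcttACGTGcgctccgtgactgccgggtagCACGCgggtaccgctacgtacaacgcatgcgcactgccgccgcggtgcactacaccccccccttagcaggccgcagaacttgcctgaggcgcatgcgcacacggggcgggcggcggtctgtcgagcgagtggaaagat
Pdk1: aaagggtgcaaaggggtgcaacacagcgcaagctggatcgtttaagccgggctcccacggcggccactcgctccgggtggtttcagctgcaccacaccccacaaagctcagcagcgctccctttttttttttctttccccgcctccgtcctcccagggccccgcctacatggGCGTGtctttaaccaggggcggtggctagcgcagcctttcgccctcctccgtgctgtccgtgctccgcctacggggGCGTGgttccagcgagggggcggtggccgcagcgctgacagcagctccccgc
Bnip3: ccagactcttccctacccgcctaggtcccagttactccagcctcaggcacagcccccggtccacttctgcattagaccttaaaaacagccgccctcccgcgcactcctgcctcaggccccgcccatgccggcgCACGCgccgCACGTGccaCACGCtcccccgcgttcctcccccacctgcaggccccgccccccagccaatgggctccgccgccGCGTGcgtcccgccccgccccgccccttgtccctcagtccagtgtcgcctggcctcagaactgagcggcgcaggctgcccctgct
Slc16a3: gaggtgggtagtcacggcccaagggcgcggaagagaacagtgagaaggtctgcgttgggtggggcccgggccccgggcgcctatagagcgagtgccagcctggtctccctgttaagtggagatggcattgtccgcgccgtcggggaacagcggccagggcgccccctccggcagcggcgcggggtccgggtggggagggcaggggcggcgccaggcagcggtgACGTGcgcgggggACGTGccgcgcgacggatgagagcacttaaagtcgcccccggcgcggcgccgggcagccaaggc
Car12: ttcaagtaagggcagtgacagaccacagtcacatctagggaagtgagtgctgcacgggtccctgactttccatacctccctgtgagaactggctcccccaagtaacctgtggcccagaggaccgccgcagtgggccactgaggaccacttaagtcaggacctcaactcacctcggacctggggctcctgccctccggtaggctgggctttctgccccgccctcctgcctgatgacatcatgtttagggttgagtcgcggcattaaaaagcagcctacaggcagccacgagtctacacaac

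The windows lie at chrX:106186850-106187149 on the plus strand for Pgk1, chr19:41911621-41911920 (plus) for Pgam1 and chr2:71872974-71873273 (plus) for Pdk1. Those of Bnip3, Slc16a3 and Car12 lie at chr7:138909457-138909756 (minus), chr11:120948817-120949116 (plus) and chr9:66713436-66713735 (plus). The motif occurs 2 times for Pgk1, at 150 and 131 bases before the start, and 3 times for Pgam1, at 175, 114 and 88 bases before it. Pdk1 and Slc16a3 hold 2 matches each, Bnip3 holds 5 of which 2 overlap in the palindrome of the 2 strands, and Car12 holds 0 in this window. The window of Tpi1, not shown, holds 0 although its r with Pgk1 was 0.794. Whether the motif goes with correlation to Pgk1 was not tested. A second RefSeq start of Pdk1, with its window at chr2:71874654-71874953 (plus), holds 0 as well. A RefSeq promoter was found for 36 of the 41 genes, which are not the same 36 as the measured ones. Among them are the unmeasured Aldoa, Gpi1, Eno1 and Ankrd37, while the measured Slc2a3, Ndrg1, Plod2 and Angptl4 had none. At least 1 window with the motif was present for 32 of those 36 genes (88.9%), beside 61.4% of tested genes and 46.7% of all genes with a promoter in the table. Counted by window, the share was 74.1% for glycolytic enzymes and 78.9% for hypoxia genes, against 56.7% for tested genes. A match is a string of letters, not a binding site.

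Slc2a1 was used as a second anchor, chosen after its values were seen. By the same exact permutation test, 0 of 35 members passed with it after adjustment and 8 at an unadjusted p under 0.05. The share of all tested genes past that p with Slc2a1 was not computed, so the 8 have no background beside them. The closest were P4ha2 with r of 0.923, Ndrg1 with 0.911, Slc16a3 with 0.879, Slc2a3 with 0.878 and Ddit4 with 0.857, each with an adjusted exact permutation p of 0.0628. Their rho ran from 0.762 to 0.905, with adjusted exact permutation p of 0.0845 to 0.201, and r without the 2 tumours farthest from the median of Slc2a1 ran from 0.771 to 0.907. Their high tumours were mostly NeuNT/H1074R tumours 1 and 3 and NeuNT tumours 3 and 4. In the same tumours the mean of the neutrophil markers (8 of 10 measured) was above its average. It lay 0.79 and 0.19 above in NeuNT/H1074R tumours 1 and 3, and 0.13 and 1.70 above in NeuNT tumours 3 and 4. In NeuNT tumour 3 this came from S100a8 and S100a9, while Csf3r, Cxcr2, Mmp8, Retnlg, Mpo and Elane were below their own averages. Csf3r, Cxcr2, Mpo and Elane were also below theirs in NeuNT/H1074R tumour 3. The mean was below its average in the other 4 tumours. As a log2 level it ran from 5.06 to 6.42 in NeuNT/H1074R tumours and from 4.50 to 7.33 in NeuNT tumours. The part of neutrophils in the order of these genes was not tested.

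Several glycolytic and glycogen enzymes exist as a muscle-type and a common isoform. Of the muscle-type isoforms, 6 of 7 were tested and 6 of 6 had a positive difference, beside 49.5% of all tested genes. Their median was 0.26. Phkg1 at 0.00 became -0.019 with arrays centred on their medians and -0.018 after quantile normalization. With 1 tumour left out, Fbp2 fell as low as -0.044, Phka1 -0.15 and Phkg1 -0.17. Without both muscle-rich tumours, Pygm, Fbp2 and Phkg1 were negative. Pfkm and Eno3 kept their direction in all these fits. Of the common isoforms, 8 of 9 were tested, with 4 positive and 4 negative, a median of -0.04 and a mean of 0.20, so that median and mean differed in sign. The medians differed by 0.30. Without both muscle-rich NeuNT/H1074R tumours this became -0.10, and without NeuNT tumour 4 it was -0.07, so its direction rested on those tumours.

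Eno3, the muscle enolase, had log2 values of 7.15, 6.29, 6.98 and 6.32 in NeuNT/H1074R tumours, against 6.06, 6.10, 6.05 and 6.17 in NeuNT tumours. Tumours 1 and 3 stood above the other NeuNT/H1074R tumours and the genotypes did not overlap, with a difference of 0.59 ± 0.21 (SE), an unadjusted p of 0.0224 and a limma adjusted p of 0.978. Without tumours 1 and 3 it was 0.21. Pygm, muscle glycogen phosphorylase, had 6.89, 4.55, 6.02 and 4.41 in NeuNT/H1074R tumours and 4.89, 4.77, 4.49 and 4.33 in NeuNT tumours. Again NeuNT/H1074R tumours 1 and 3 were the highest, and the difference was 0.85 ± 0.52 (SE), or -0.14 without them. For comparison the muscle creatine kinase Ckm had 7.58, 5.37, 6.71 and 5.31 in NeuNT/H1074R tumours and 5.04, 5.12, 4.82 and 5.02 in NeuNT tumours, the same tumours being high.

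Pgam2, the muscle phosphoglycerate mutase, was too dim to be tested, with log2 values of 4.68, 4.12, 4.06 and 4.07 in NeuNT/H1074R tumours and 3.64, 3.55, 3.77 and 3.94 in NeuNT tumours. Its common partner Pgam1 had 9.40, 9.02, 9.53 and 9.62 in NeuNT/H1074R tumours and 9.28, 8.61, 9.97 and 9.70 in NeuNT tumours. Pfkm, the muscle phosphofructokinase, did not follow the muscle markers. It had 6.78, 7.36, 7.40 and 7.36 in NeuNT/H1074R tumours and 7.08, 7.09, 7.13 and 5.80 in NeuNT tumours, with the lowest NeuNT/H1074R value in muscle-rich tumour 1. Its difference of 0.45 ± 0.32 (SE) was close to those of Pfkl and Pfkp.

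Among glycogen phosphorylases, Pygl, the liver form, had log2 values of 6.92, 7.97, 7.64 and 8.29 in NeuNT/H1074R tumours, against 7.37, 6.21, 6.10 and 6.27 in NeuNT tumours. NeuNT tumour 1 lay above NeuNT/H1074R tumour 1 and the genotypes otherwise separated, with a difference of 1.22 ± 0.36 (SE), an unadjusted p of 0.00915 and a limma adjusted p of 0.978. Pygb, the brain form, had 8.60, 8.80, 8.75 and 8.52 in NeuNT/H1074R tumours, against 8.80, 9.33, 8.72 and 8.33 in NeuNT tumours. It was highest in NeuNT tumour 2 and overlapped, with a difference of -0.13 ± 0.20 (SE).

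Fructose bisphosphatase, the gluconeogenic enzyme that opposes phosphofructokinase, has the muscle form Fbp2 and the liver form Fbp1. Fbp2 had log2 values of 5.24, 4.13, 5.22 and 5.01 in NeuNT/H1074R tumours, against 4.79, 4.69, 4.89 and 4.95 in NeuNT tumours. For Fbp1 they were 5.10, 4.26, 5.31 and 4.68 in NeuNT/H1074R tumours, against 4.23, 4.40, 5.08 and 6.38 in NeuNT tumours. Fbp2 was lowest in NeuNT/H1074R tumour 2, Fbp1 was highest in NeuNT tumour 4, and both overlapped between genotypes, with differences of 0.07 ± 0.24 and -0.19 ± 0.46 (SE). Phosphorylase kinase activates glycogen phosphorylase, and its alpha subunit has the muscle form Phka1 and the liver form Phka2. The values of Phka1 were 5.78, 6.11, 5.52 and 6.04 in NeuNT/H1074R tumours, against 5.78, 6.23, 6.03 and 5.31 in NeuNT tumours. Those of Phka2 were 6.30, 6.94, 6.34 and 6.72 in NeuNT/H1074R tumours, against 6.91, 7.10, 6.41 and 6.42 in NeuNT tumours. Both were highest in NeuNT tumour 2, with differences of 0.02 ± 0.22 for Phka1 and -0.14 ± 0.22 for Phka2 (SE). The catalytic gamma subunit has the muscle form Phkg1 and the form Phkg2 of liver and testis. Phkg1 had 5.38, 4.52, 4.76 and 4.86 in NeuNT/H1074R tumours, against 4.44, 4.91, 5.41 and 4.76 in NeuNT tumours. Phkg2 had 7.98, 8.40, 7.86 and 8.43 in NeuNT/H1074R tumours, against 8.48, 8.52, 8.20 and 7.82 in NeuNT tumours. The genotypes overlapped for both, with differences of 0.00 ± 0.24 for Phkg1 and -0.09 ± 0.21 for Phkg2 (SE).

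**Figure D5:**
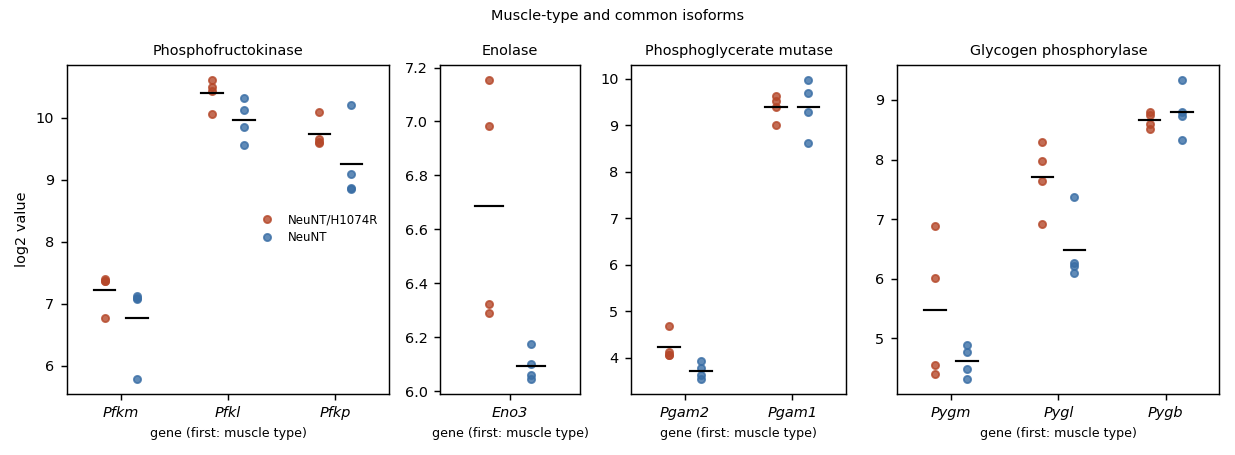
Log2 values of muscle-type and common isoforms in each tumour, with NeuNT/H1074R left of NeuNT, 1 point per tumour and the group mean as a bar; levels of different genes are not comparable because each has its own probe. Eno3 and Pygm are high in NeuNT/H1074R tumours 1 and 3 (7.15 and 6.98, 6.89 and 6.02), while Pfkm is not.

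Further genes of the pathways gave no call either. In the 21 of 27 other glycolysis genes that were tested, limma called 0 and 0 had an unadjusted p under 0.05, with 10 positive and 11 negative differences. The smallest p values were those of Ldhd, a D-lactate dehydrogenase (1.07 ± 0.62), Pgm2, a gene of the phosphoglucomutase family (-0.54 ± 0.34) and Pdk3, a pyruvate dehydrogenase kinase (-0.52 ± 0.47, all SE). Of the 31 of 34 other hypoxia genes tested, limma called 0 and 0 had an unadjusted p under 0.05, with 14 positive and 17 negative, a median of -0.02 and a mean of 0.03. The 3 of smallest p were the ubiquitin ligase Siah2 (-0.41 ± 0.19), the transcription factor Klf10 (-0.27 ± 0.13) and the glycogen-targeting phosphatase subunit Ppp1r3b (-0.65 ± 0.35, all SE).

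The HIF machinery itself comprises the alpha subunits, their partners and the VHL ubiquitin ligase. Of its 11 tested genes of 12, 4 had a positive and 7 a negative difference. By limma, 0 were called and 1 had an unadjusted p under 0.05, beside 3.82% of all tested genes. That gene was Elob, elongin B of the VHL complex, with log2 values of 11.06, 11.20, 11.23 and 11.25 in NeuNT/H1074R tumours, against 11.36, 11.41, 11.64 and 11.39 in NeuNT tumours. Its genotypes did not overlap, as was so for 2.69% of all tested genes. The difference was -0.27 ± 0.10 (SE), with an unadjusted limma p of 0.0276 and a limma adjusted p of 0.978. Hif3a, a HIF alpha subunit with inhibitory forms, differed by 0.27 ± 0.13 (SE), and Hif1a, the main alpha subunit of the acute response, by -0.18 ± 0.11 (SE).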

How the data were processed

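A single table of deposited log2 values held 41345 probes in 8 tumours. Per the submitters' processing notes, the tools were Transcriptome Analysis Console and Affymetrix Expression Console. Their versions, the background correction and the normalization were not stated in the labels. That the scale is log2 was judged from the range of the deposited values, 0.887 to 13.6. Arrays give no depth, so the precision rests on their number and on the spread between tumours.

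The platform annotation listed 23521 probes with 1 symbol and 1814 with several, and 16010 were not listed. A gene was read from its probe of highest mean, and genes in the lowest 25% of means (under 4.06) were left out, leaving 16635. The fit used limma 3.58.1 (R 4.3.3; eBayes with trend, no covariate, two-sided), with p adjusted by Benjamini-Hochberg over all tested genes at a threshold of 0.05. Correlations were tested exactly with numpy 2.4.6. The fit was tested on simulated data with independent noise in each gene, which leaves out shifts that many genes share in a tumour. Genes given in full were the 12 members of smallest p, the 6 of widest range, Pgk1, Slc2a1, Car9, Hk2 and the isoform families. Members and lists were chosen with earlier results of these data known. Stc2 in NeuNT tumour 2, the tumour values of Elob, Ckm and Slc2a1 as an anchor were singled out after their values were seen. Promoters were read from RefSeq, GRCm38.p6.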

Additional observations from a re-analysis of the deposited data

Results flagged for a closer look

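In 96 groups of 4 tumours, made of the members, isoforms and group means in each genotype, 7 held a tumour whose gap to the nearest of the others passed Dixon's 95% critical value. Chance gives about 1 in 20 such groups, or 4.8 here. The tumours named are those whose value lay far from the 3 others of its genotype. Pfkp was 10.10 in NeuNT/H1074R tumour 4, beside 9.60 to 9.66 in the other NeuNT/H1074R tumours. Pfkm was 6.78 in NeuNT/H1074R tumour 1, beside 7.36 to 7.40, and 5.80 in NeuNT tumour 4, beside 7.08 to 7.13 in the other NeuNT tumours. Bnip3 was 6.59 in NeuNT tumour 2, beside 7.59 to 7.77, and Egln1 was 8.40 there, beside 8.88 to 8.91. Pygl was 7.37 in NeuNT tumour 1, beside 6.10 to 6.27. The centred mean of the hypoxia genes was -0.50 in NeuNT tumour 2, beside 0.06 to 0.11 in the other NeuNT tumours.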

How the results depend on the processing

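No gene passed the threshold under any alternative, by limma or by an ordinary two-sample test, and the smallest adjusted p of a member under any of them was 0.726. The direction of the difference held for 17 of the 36 members under every alternative, and 18 turned when 1 tumour was left out. Over the fits with 1 tumour left out, the differences of the genes that turned, isoforms included, ran as follows: Slc2a3 (-0.016 to 0.27), Hk2 (-0.035 to 0.36), Aldoc (-0.14 to 0.50), Tpi1 (-0.10 to 0.15), Gapdh (-0.083 to 0.041), Pgk1 (-0.15 to 0.31), Pgam1 (-0.26 to 0.19), Eno2 (-0.29 to 0.039), Slc16a3 (-0.23 to 0.77), Car9 (-0.062 to 0.74), Bnip3 (-0.13 to 0.30), Ndrg1 (-0.35 to 0.60), Egln1 (-0.0094 to 0.25), Egln3 (-0.13 to 0.81), P4ha2 (-0.37 to 0.18), Kdm3a (-0.31 to 0.21), Plod2 (-0.21 to 0.18), Mxi1 (-0.051 to 0.24), Fbp2 (-0.044 to 0.33), Phka1 (-0.15 to 0.16), Phkg1 (-0.17 to 0.18), Pygb (-0.28 to 0.049), Fbp1 (-0.45 to 0.27) and Phkg2 (-0.23 to 0.014). Without both NeuNT/H1074R tumours with high muscle genes, an alternative chosen after seeing the data, the direction turned for Slc2a1 (-0.29), Slc2a3 (-0.17), Hk2 (-0.075), Pgam1 (-0.070), Slc16a3 (-0.68), Car9 (-0.17), Ndrg1 (-1.03), Egln1 (-0.034), Mxi1 (-0.071), Pygm (-0.14), Fbp2 (-0.26), Phkg1 (-0.19), Phka2 (0.12) and Phkg2 (0.16). Averaging all probes turned Gapdh (0.0067) and Pgam1 (-0.025). Centring the arrays on their medians turned Pgam1 (-0.019) and Phkg1 (-0.019), quantile normalization turned Phkg1 (-0.018), and array weights turned Pgam1 (-0.063), Slc16a3 (-0.15), Ndrg1 (-0.33), Fbp2 (-0.095), Phkg1 (-0.052) and Phkg2 (0.0028). The muscle-type minus common difference of medians, 0.30, became -0.10 without both muscle-rich tumours and 0.49 with no filter on dim genes. With 1 tumour left out, between 1 and 3 members passed with Pgk1. The number was 0 with all probes of a gene averaged, 1 without both muscle-rich tumours and 0 with Slc2a1 in place of Pgk1, the last chosen after seeing the data. The cause of these changes was not tested. The number of arrays limits what could be seen: a member's 95% interval reached a median of 0.66 to either side. No paired analysis was possible because the numbers 1 to 4 only name the tumours of a genotype, in accession order, and the submitters' own tumour numbers differ between genotypes.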
